A study of Mus musculus with 30 samples.

Results

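Polyamines are small, positively charged molecules that bind nucleic acids and are needed for translation and cell growth. ODC1 makes putrescine from ornithine, and the spermidine and spermine synthases lengthen it with aminopropyl groups that AMD1 prepares from S-adenosylmethionine, while SAT1 and SMOX act in the opposite direction. The pool is held steady by antizyme (OAZ1), which takes ODC1 to the proteasome, and by antizyme inhibitor (AZIN1), which frees ODC1 from antizyme. In skeletal muscle the pathway is known for its response to hormones, loading and atrophy. The 9 genes described here, AMD1, AMD2, ODC1, SMOX, SAT1, SRM, SMS, OAZ1 and AZIN1, were chosen by symbol, and all 9 were found among the 21073 genes of the expression table.

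Gene expression was measured by RNA-Seq in the extensor digitorum longus (EDL), a fast hindlimb muscle, of 30 wild-type female SJL/J mice. On day 14 and on day 40 there were 5 unimmunized mice (Ctrl), 5 mice given ovalbumin in complete Freund's adjuvant (OVA) and 5 mice given the myelin peptide [Ser140]-PLP139-151 in the same adjuvant to induce experimental autoimmune encephalomyelitis (EAE), a model of multiple sclerosis. The Ctrl mice received neither antigen nor adjuvant, so only the OVA mice separate the peptide from the adjuvant. Each mouse was sampled once, and the age of the mice was not given in the sources used here. Levels are in RPKM, the reads on a gene scaled to its exon length and to the mapped reads of the library. The p-values weigh differences between groups against the spread between mice. Between 18200000 and 31800000 reads per mouse were estimated from the values (median 21800000), with 1 EAE mouse of day 14 (replicate 3) above the next highest at 24900000. The lowest number of reads behind any member in any mouse was about 130, for SRM. The 10 fast muscle markers summed to between 68971 and 126261 RPKM in the 30 mice, and all of them were expressed. On day 14 every EAE mouse had a lower sum than every control mouse.

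Near-identical copies limit what the values of AMD1, AMD2 and OAZ1 mean. AMD2 (GRCm38 chromosome 10, 35708691 to 35711891, minus strand) and AMD1 (chromosome 10, 40287458 to 40302188, minus strand) differ in 14 of 3202 aligned transcript bases, and in 1 of 334 residues of the encoded enzyme. OAZ1 (chromosome 10, 80826656 to 80829290, plus strand) matches the transcribed pseudogene Oaz1-ps on chromosome 17 in 680 of 685 aligned bases. How the authors assigned reads that fit both copies was not given in the sources used here, so the split between the copies is uncertain. Antizyme is known for a programmed frameshift: polyamines make the ribosome slip past a stop codon, so that antizyme is made when polyamines are plentiful. The 60 bases around that site are shown because they are the same in the gene and in the pseudogene. These bases alone do not tell the copies apart. Capitals mark the letters TCCTGAT, which hold the stop codon at which the frame shifts. Both windows were read from GENCODE vM21 transcripts (GRCm38), 5′ to 3′, at chr10:80828265-80828324 (plus strand, in the coding part of OAZ1) and chr17:17345907-17345966 (minus strand).
OAZ1: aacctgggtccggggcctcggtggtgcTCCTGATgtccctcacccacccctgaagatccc
Oaz1-ps: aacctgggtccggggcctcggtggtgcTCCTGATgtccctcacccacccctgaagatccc

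The bases before the start sites of ODC1, AMD1 and AMD2 differ far more than the transcripts of the AMD pair. The 250 bases before each start site are shown because ODC1 and AMD1 had the largest log2 fold changes of the members between EAE mice and both control groups on day 14, in opposite directions, and AMD2 is the copy of AMD1. They were taken from RefSeq (GRCm38.p6), which matched 7 of the 9 members (SRM and AZIN1 have no entry), and capitals mark GC boxes, the letters GGGCGG on either strand. ODC1 lies at chr12:17544623-17544872 (plus strand), AMD1 at chr10:40302189-40302438 (minus strand) and AMD2 at chr10:35711892-35712141 (minus strand).
ODC1: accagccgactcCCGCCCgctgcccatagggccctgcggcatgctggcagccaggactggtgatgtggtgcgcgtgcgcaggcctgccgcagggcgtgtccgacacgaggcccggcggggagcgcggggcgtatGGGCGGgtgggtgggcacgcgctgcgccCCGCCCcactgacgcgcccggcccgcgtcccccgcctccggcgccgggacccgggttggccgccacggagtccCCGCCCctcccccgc
AMD1: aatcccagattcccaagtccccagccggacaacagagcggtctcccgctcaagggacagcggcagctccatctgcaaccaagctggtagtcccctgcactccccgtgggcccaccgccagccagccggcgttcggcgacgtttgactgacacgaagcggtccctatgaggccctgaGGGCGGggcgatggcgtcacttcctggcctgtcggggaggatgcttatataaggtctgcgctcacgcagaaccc
AMD2: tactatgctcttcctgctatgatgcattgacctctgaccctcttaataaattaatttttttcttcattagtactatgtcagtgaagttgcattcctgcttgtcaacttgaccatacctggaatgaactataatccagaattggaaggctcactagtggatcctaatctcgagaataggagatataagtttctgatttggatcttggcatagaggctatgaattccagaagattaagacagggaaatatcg

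These 250 bases held 4 GC boxes in ODC1, 1 in AMD1 and 0 in AMD2, where 35.7% of the 32851 RefSeq promoters of 300 bases held at least 1. Among the other members, SMOX held 6, SAT1 2 and OAZ1 0, and SMS held 0 at start site 1 and 4 at start site 2. ODC1, AMD1 and AMD2 held 0 E-boxes (the letters CACGTG), where 7.2% of the promoters held at least 1. The GC content was 80.0% in ODC1, 64.4% in AMD1 and 37.6% in AMD2. Counted from the start site, AMD1 and AMD2 share a run of at least 48 identical bases that begins at base 3 of AMD1 and at base 1 of AMD2. Only 50 bases after each start site were read, and the run reaches the last of them in AMD1. The best local match between their upstream bases was 7 bases long. The reference is of the C57BL/6J strain, and the SJL/J sequence was not examined.

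**Figure D1:**
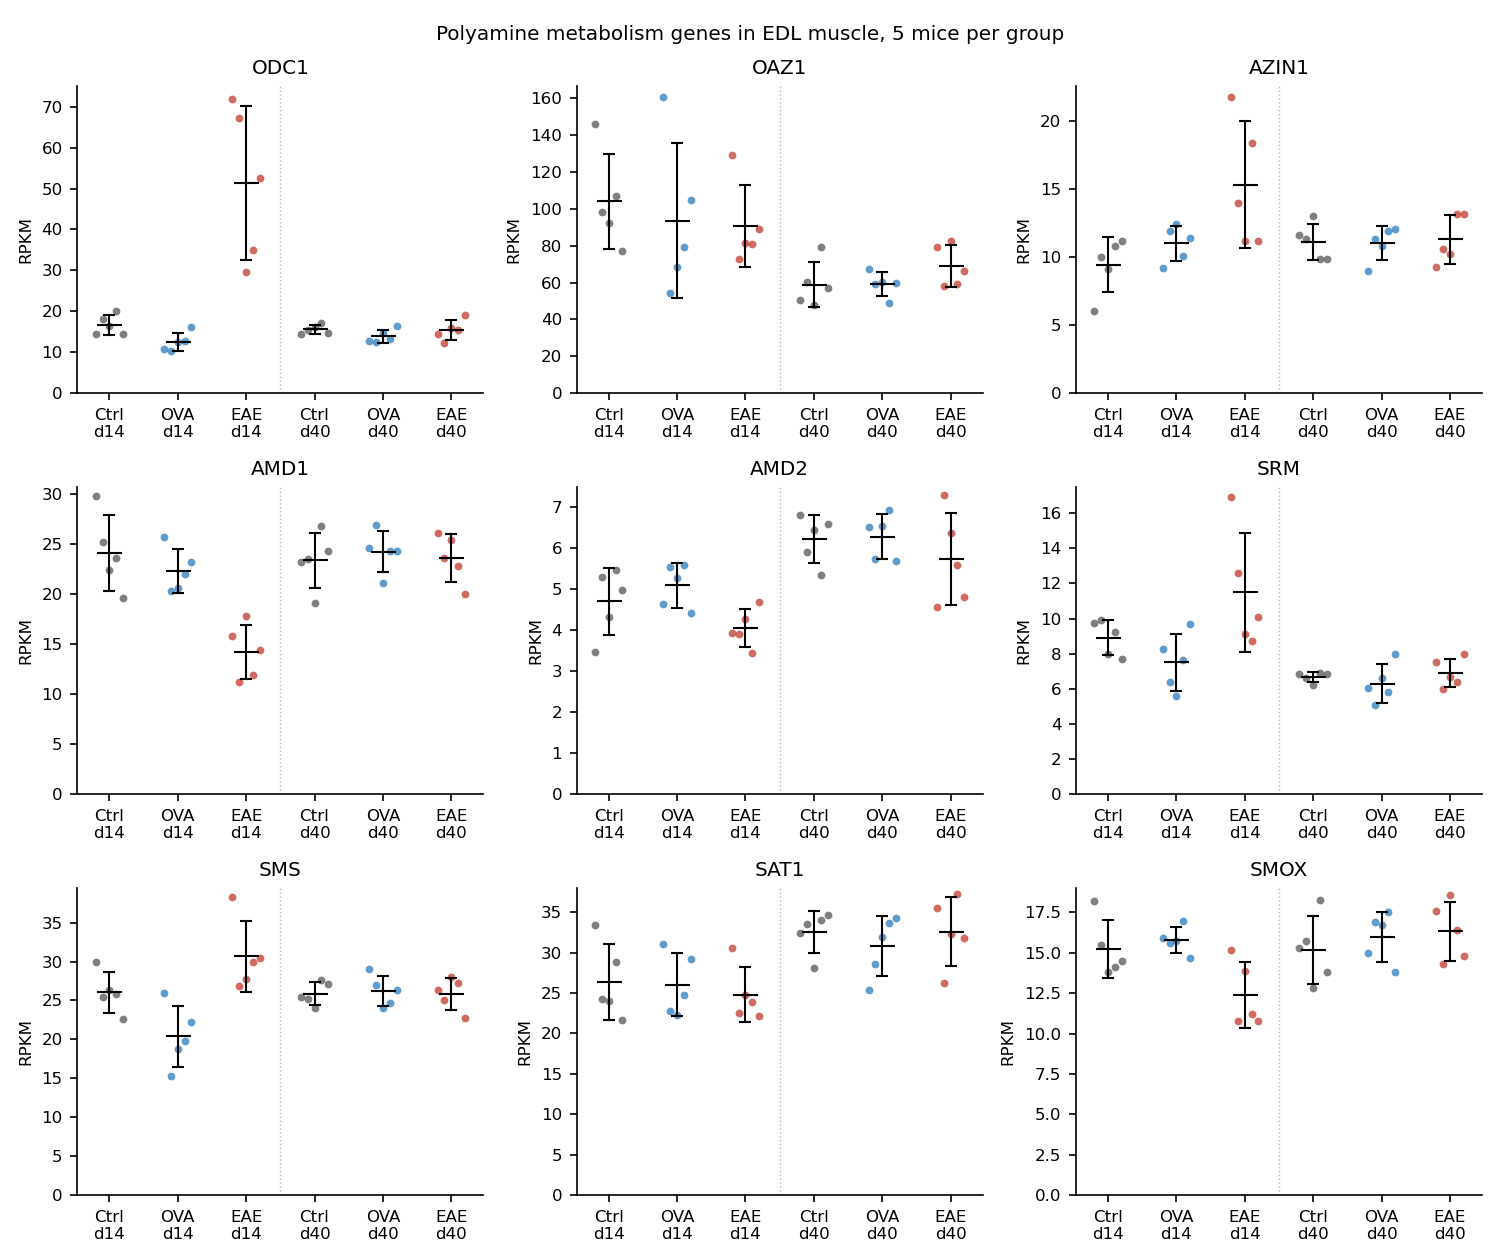
Level of each polyamine gene in every mouse (vertical axes in RPKM, each starting at 0) by group and day, with 5 points per group and black bars for the mean ± SD. ODC1 stood between 29.6 and 72.0 RPKM in the EAE mice of day 14 and at most at 20.1 RPKM in all other mice, and AMD1 was lowest in the EAE mice of day 14.

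On day 14, the muscle of EAE mice had more ODC1 mRNA and less AMD1 mRNA than that of both control groups, without overlap between single mice. AZIN1 was higher in EAE than in Ctrl mice, and both synthases, SRM and SMS, were higher in EAE than in OVA mice, each by a margin close to the 1.5-fold threshold. SAT1 did not pass in any comparison, nor did OAZ1, AMD2 or SMOX. On day 40 none of the 9 genes passed a comparison. A gene was called when the adjusted p was below 0.05 (limma, Benjamini-Hochberg over all genes tested) and the fold change above 1.5.

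Against Ctrl mice on day 14, 2 of the 9 genes were called higher and 1 lower in EAE mice, where 14.6% of the 8771 genes tested were called higher and 11.8% lower. Against OVA mice, 3 of the 9 genes were called higher and 1 lower, where 11% of the 8674 genes tested were called higher and 9.28% lower. The median log2 fold change of the 9 genes was -0.08 against Ctrl and 0.03 against OVA, and that of all genes tested was 0.11 in both. All 9 genes exceeded the filter of a mean of 3 RPKM in every comparison. Both comparisons share the EAE mice.

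**Figure D2:**
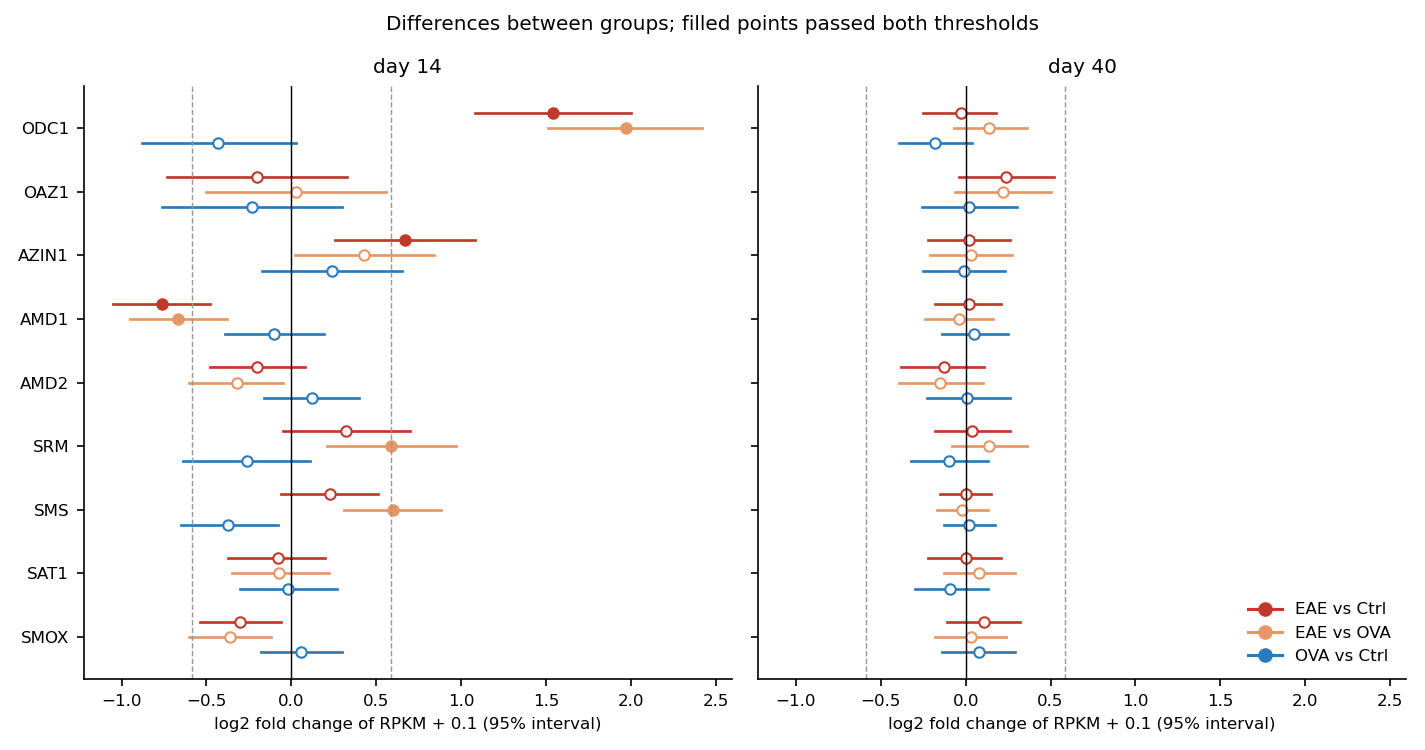
Log2 fold change of each gene (horizontal axis, on log2(RPKM + 0.1)) with its 95% interval in the 3 comparisons of day 14 (left) and day 40 (right), where filled points passed both thresholds and dashed lines mark a 1.5-fold change. The filled points are all on day 14, and no interval of day 40 reached beyond 1.43-fold.

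ODC1 (ornithine decarboxylase, chromosome 12, 17544808 to 17551502, plus strand) is the enzyme that makes putrescine and sets the pace of the pathway. It had the widest range of the 9 genes as the ratio of the highest to the lowest mouse (7.03). In the EAE mice of day 14 it reached 72.0, 67.2, 29.6, 35.1 and 52.5 RPKM. In Ctrl mice of that day it was at 14.4, 18.0, 16.5, 20.1 and 14.5 RPKM, and in OVA mice at 10.8, 10.2, 12.4, 12.8 and 16.1 RPKM. Every EAE mouse was above every control mouse, although the highest EAE mouse had more than double the level of the lowest. ODC1 rose 2.91-fold against Ctrl (log2 fold change 1.54, SE 0.22, adjusted p = 5.2e-05) and 3.91-fold against OVA mice (log2 fold change 1.97, SE 0.22, adjusted p = 8.5e-06). The exact two-sided permutation p was 0.00794 in each, the smallest that 5 against 5 mice can give. With single mice of the 10 removed in turn, the log2 fold change stayed between 1.40 and 1.72 against Ctrl and between 1.82 and 2.14 against OVA, and ODC1 was called every time.

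AZIN1 (antizyme inhibitor 1; chromosome 15, 38487430 to 38519294, minus strand) resembles ODC1 but does not make putrescine, and binds antizyme in its place. It was at 21.8, 14.0, 11.2, 18.4 and 11.2 RPKM in EAE mice of day 14 and at 6.06, 10.0, 9.16, 10.8 and 11.2 RPKM in Ctrl mice. The ranges touched at 11.2 RPKM, and the lowest Ctrl value was that of replicate 1. AZIN1 rose 1.59-fold against Ctrl (log2 fold change 0.67, SE 0.19, adjusted p = 0.01), but the call was lost without Ctrl replicate 1 (0.52), without EAE replicate 1 (0.53) and under quantile normalization (0.55), each time because the fold change came below 1.5. In OVA mice AZIN1 was at 9.20, 11.9, 12.4, 10.1 and 11.4 RPKM, and the difference between EAE and OVA mice did not pass (log2 fold change 0.43, SE 0.19, adjusted p = 0.088).

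OAZ1 (antizyme 1) was the most abundant of the 9 genes per length and varied widely within groups on day 14. It was at 129, 72.7, 81.7, 80.8 and 89.2 RPKM in EAE mice and at 146, 98.1, 92.3, 107 and 77.0 RPKM in Ctrl mice. OVA mice spread from 54.4 to 161 RPKM, and the ranges of all 3 groups overlapped. The log2 fold change of EAE was -0.20 against Ctrl (95% interval -0.73 to 0.33, adjusted p = 0.53). Against OVA it was 0.03 (95% interval -0.50 to 0.56, adjusted p = 0.94). Changes of a size within these intervals remain possible. The pseudogene Oaz1-ps was listed at 461 ± 116 RPKM (SD, n = 5) in EAE and 483 ± 128 RPKM in Ctrl mice of day 14, with a log2 fold change of -0.06 (SE 0.21, adjusted p = 0.826). With the reads of both copies counted together, a choice made after seeing the data, the log2 fold change of antizyme against Ctrl was -0.09 and that against OVA 0.04.

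AMD1 (S-adenosylmethionine decarboxylase 1), which supplies the aminopropyl donor for both synthases, moved against ODC1. It was at 15.8, 11.2, 17.8, 11.9 and 14.4 RPKM in EAE mice of day 14. Ctrl mice were at 29.8, 25.2, 22.4, 23.6 and 19.6 RPKM, and OVA mice at 25.7, 20.3, 20.6, 22.0 and 23.2 RPKM. Every EAE mouse was below every control mouse. AMD1 fell by 0.76 on the log2 scale against Ctrl (SE 0.14, adjusted p = 0.00039), a 1.70-fold change, and by 0.67 against OVA (SE 0.14, adjusted p = 0.0014), with an exact permutation p of 0.00794 in each. It was called without each of the mice in turn, with log2 fold changes of -0.85 to -0.68 against Ctrl and -0.75 to -0.59 against OVA.

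AMD2, the copy of AMD1, was far lower and did not pass. It was at 3.93, 3.89, 4.27, 3.44 and 4.67 RPKM in EAE mice of day 14, at 3.46, 5.29, 4.32, 5.46 and 4.97 RPKM in Ctrl mice and at 4.63, 5.53, 5.26, 5.59 and 4.40 RPKM in OVA mice. Its log2 fold change was -0.20 against Ctrl (SE 0.13, adjusted p = 0.21) and -0.32 against OVA (SE 0.13, adjusted p = 0.062). Since reads may have been split between the copies, both were also counted together. The sum of AMD1 and AMD2 was called lower in EAE mice as well, with a log2 fold change of -0.66 against Ctrl and -0.60 against OVA.

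**Figure D3:**
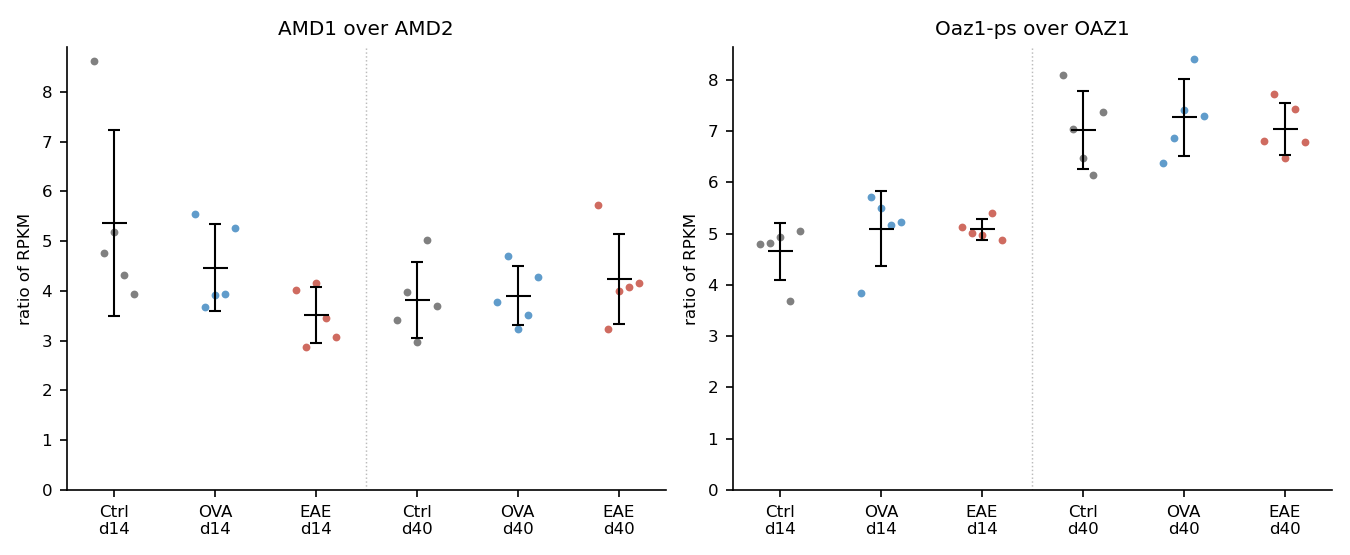
Ratio of RPKM between near-identical copies in every mouse (vertical axes, from 0), AMD1 over AMD2 (left) and Oaz1-ps over OAZ1 (right), with 5 points per group and black bars for the mean ± SD. The AMD1 ratio had its lowest group mean in the EAE mice of day 14 (3.52 ± 0.565, from 2.88 to 4.18, beside 3.94 to 8.60 in Ctrl and 3.68 to 5.55 in OVA mice of that day), and the pseudogene was listed above OAZ1 in all 30 mice.

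SRM (spermidine synthase; chromosome 4, 148591513 to 148594619, plus strand) adds the first aminopropyl group, and SMS (spermine synthase; chromosome X, 157443851 to 157492287, minus strand) the next. SRM was at 16.9, 12.6, 9.09, 8.72 and 10.1 RPKM in EAE mice of day 14. OVA mice were at 8.28, 6.36, 5.56, 7.62 and 9.69 RPKM, and Ctrl mice at 9.73, 9.91, 7.96, 9.25 and 7.72 RPKM. EAE replicate 1 was the highest, and the ranges overlapped. SRM rose 1.5-fold against OVA (log2 fold change 0.59, SE 0.18, adjusted p = 0.016), which did not hold in an exact permutation test with the same adjustment (adjusted p = 0.076), and the difference from Ctrl did not pass (log2 fold change 0.32, SE 0.18, adjusted p = 0.14). SRM was not called without EAE replicate 1 (0.44), EAE replicate 2 (0.54), OVA replicate 2 (0.54) or OVA replicate 3 (0.49).

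SMS was at 38.3, 26.9, 27.8, 29.9 and 30.4 RPKM in EAE mice of day 14. OVA mice were at 25.9, 15.3, 18.7, 19.8 and 22.2 RPKM, and Ctrl mice at 30.0, 25.4, 26.4, 25.8 and 22.6 RPKM. All EAE mice were above all OVA mice, while they overlapped with the Ctrl mice. SMS rose 1.51-fold against OVA (log2 fold change 0.60, SE 0.13, adjusted p = 0.0027) and had a log2 fold change of 0.23 against Ctrl (SE 0.13, adjusted p = 0.17). With a fold change at the threshold, it was not called without EAE replicate 1 (0.51), OVA replicate 2 (0.50) or OVA replicate 3 (0.57), though the adjusted p stayed at or below 0.0078 in each. Both synthases lost their call under a pseudocount of 1 and under 2 other scalings of the mice.

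SAT1 (spermidine/spermine acetyltransferase; chromosome X, 155213126 to 155216449, minus strand) tags polyamines for export or oxidation, and SMOX (spermine oxidase; chromosome 2, 131491858 to 131525183, plus strand) turns spermine back into spermidine. SAT1 ranged from 22.2 to 30.6 RPKM in EAE, from 21.6 to 33.4 RPKM in Ctrl and from 22.3 to 31.1 RPKM in OVA mice of day 14, and its log2 fold change was -0.08 against Ctrl (95% interval -0.37 to 0.20) and -0.07 against OVA (95% interval -0.35 to 0.22). SMOX was at 15.2, 10.8, 13.9, 11.2 and 10.8 RPKM in EAE mice, at 18.2, 15.5, 13.8, 14.1 and 14.5 RPKM in Ctrl mice and at 15.9, 15.6, 15.7, 17.0 and 14.7 RPKM in OVA mice. Its log2 fold change of -0.30 against Ctrl (SE 0.11, adjusted p = 0.036) and of -0.36 against OVA (SE 0.11, adjusted p = 0.018) met the threshold for p but not that for size.

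The groups did not overlap in 2 of the 9 genes between EAE and Ctrl mice of day 14 (ODC1 and AMD1), where 32.2% of all genes tested did not overlap. Between EAE and OVA mice the number was 3 (ODC1, AMD1 and SMS), where 26.2% of all genes did not overlap. Within the EAE group of day 14, replicate 1 was the highest mouse for 7 of the 9 genes (ODC1, SMOX, SAT1, SRM, SMS, OAZ1 and AZIN1), replicate 3 for AMD1 and replicate 5 for AMD2. Replicate 1 was also the highest for 5 genes in Ctrl mice of day 14 (AMD1, SMOX, SAT1, SMS and OAZ1) and for 4 in OVA mice (AMD1, SAT1, SMS and OAZ1). EAE replicate 3 of day 14, the library with the most reads, was the lowest of its group for ODC1.

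The opposite moves of ODC1 and AMD1 can be read from single mice. The ratio of ODC1 to AMD1 in RPKM lay between 1.66 and 5.99 in the EAE mice of day 14 (median 3.66). It lay between 0.485 and 0.851 in Ctrl mice of that day (median 0.735) and between 0.419 and 0.692 in OVA mice (median 0.582). In the 15 mice of day 40 it lay between 0.463 and 0.952. ODC1 thus exceeded AMD1 only in the 5 EAE mice of day 14. The ratio of ODC1 to AZIN1 was 3.47 ± 1.27 (SD, n = 5) in EAE mice of day 14, 1.83 ± 0.384 in Ctrl and 1.14 ± 0.217 in OVA mice, with an overlap between EAE and Ctrl mice.

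**Figure D4:**
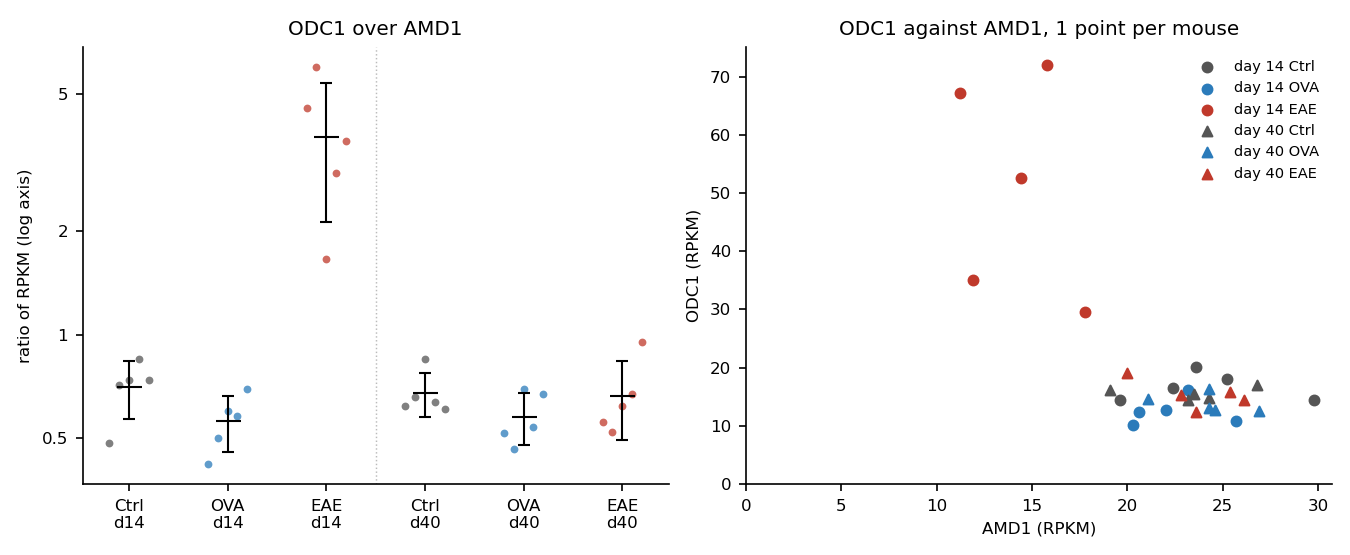
Ratio of ODC1 to AMD1 in RPKM for every mouse by group (left, log axis, mean ± SD in black) and ODC1 against AMD1 in RPKM with 1 point per mouse (right). The 5 EAE mice of day 14 have ratios of 1.66 to 5.99 and stand apart from the other 25 mice, all of which are below 1.

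The comparison of OVA with Ctrl mice on day 14 asks what the adjuvant with an unrelated antigen did. None of the 9 genes was called (limma), where 0.142% of the 8471 genes tested were called in either direction. At an unadjusted p below 0.05 there was 1 of the 9 genes, beside 821 of all 8471 tested. It was SMS, with a log2 fold change of -0.37 (SE 0.13, adjusted p = 0.38), and the exact permutation test gave 2, SMS (unadjusted exact p = 0.0397) and ODC1 (unadjusted exact p = 0.0238), beside 867 of the 8471 genes. ODC1 was at 12.4 ± 2.30 RPKM (SD, n = 5) in OVA and 16.7 ± 2.41 RPKM in Ctrl mice, with a log2 fold change of -0.43 (SE 0.22, adjusted p = 0.56). The values of SRM, SMS and ODC1 were thus lower in OVA than in Ctrl mice, by differences that did not pass. So were those of OAZ1, AMD1 and SAT1 (log2 fold changes -0.23, -0.10 and -0.02), while AMD2, SMOX and AZIN1 were higher (0.12, 0.06 and 0.24). Both comparisons share the EAE mice, so the larger rise of SRM, SMS and ODC1 against OVA than against Ctrl mice follows from this.

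On day 40, none of the 9 genes was called between EAE and Ctrl mice, between EAE and OVA mice or between OVA and Ctrl mice (limma). The share of all genes called in either direction was 0.46%, 0.209% and 0%. No member had an unadjusted p below 0.05 in any of the 3 comparisons, by limma or by the exact permutation test, where limma gave 2423 of 8691, 1500 of 8598 and 272 of 8706 genes below it, and the exact test 1659, 1712 and 310. The 95% intervals of all 27 log2 fold changes lay between -0.39 and 0.52, so that their widest end was at 1.43-fold. Each interval holds for a single gene and comparison, and larger changes are not excluded. ODC1 was at 14.5, 12.3, 15.8, 15.3 and 19.1 RPKM in EAE mice of day 40, at 14.4 to 17.1 RPKM in Ctrl mice and at 12.5 to 16.3 RPKM in OVA mice. AMD1 was at 26.1, 23.6, 25.4, 22.8 and 20.0 RPKM in EAE mice, at 19.1 to 26.8 RPKM in Ctrl mice and at 21.1 to 26.9 RPKM in OVA mice. The 3 groups overlapped for both genes.

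An interaction term, fitted over the 30 mice together, asked whether the effect of EAE on day 40 was the same as on day 14. Against Ctrl mice, 3 of the 9 genes were called, 1 with a higher log2 fold change on day 40 than on day 14 and 2 with a lower one, where 11.7% and 20.9% of the 9013 genes tested were called. The log2 fold change of ODC1 dropped by 1.57 between the days (SE 0.25, adjusted p = 1.7e-05) and that of AZIN1 by 0.66 (SE 0.23, adjusted p = 0.022), while that of AMD1 rose by 0.78 (SE 0.17, adjusted p = 0.00053). Against OVA mice, 3 were called as well, 1 higher and 2 lower, where 8.16% and 13.7% of the 8935 genes tested were called. Here the log2 fold change of ODC1 dropped by 1.82 (SE 0.25, adjusted p = 3e-06) and that of SMS by 0.62 (SE 0.15, adjusted p = 0.0026), while that of AMD1 rose by 0.63 (SE 0.17, adjusted p = 0.0048). The change of ODC1 was called without each mouse in turn, and that of AMD1 against Ctrl mice too. The change of AZIN1 was not called without Ctrl replicate 1 (-0.51), EAE replicate 1 (-0.52) or EAE replicate 4 (-0.58) of day 14, nor was that of SMS without EAE replicate 1 (-0.54) or OVA replicate 2 (-0.52) of day 14, or OVA replicate 1 (-0.58) or EAE replicate 5 (-0.57) of day 40. The change of AMD1 against OVA mice was not called without OVA replicate 1 (0.57), EAE replicate 2 (0.55) or EAE replicate 4 (0.57) of day 14 or OVA replicate 3 of day 40 (0.58), nor with AMD1 and AMD2 counted together (0.54).

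The levels of some genes differed between the days in mice without immunization too. OAZ1 was at 104 ± 26.0 RPKM (SD, n = 5) in Ctrl mice of day 14 and 58.9 ± 12.4 RPKM in those of day 40. SRM was at 7.72 to 9.91 RPKM and at 6.20 to 6.91 RPKM, without overlap. AMD2 was at 4.70 ± 0.817 and 6.21 ± 0.586 RPKM, and SAT1 at 26.4 ± 4.69 and 32.6 ± 2.62 RPKM. The ratio of Oaz1-ps to OAZ1 was 3.68 to 5.05 in Ctrl mice of day 14 and 6.15 to 8.10 in those of day 40. These values were not tested, since age, day of sampling and handling of the samples cannot be told apart.

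Per length, the order of the levels in Ctrl mice of day 14 was OAZ1 (104 RPKM), SAT1 (26.4), SMS (26.0), AMD1 (24.1), ODC1 (16.7), SMOX (15.2), AZIN1 (9.44), SRM (8.91) and AMD2 (4.70). The ranges of single mice overlapped between neighbours from SAT1 to SMOX and between AZIN1 and SRM. They did not overlap between OAZ1 and SAT1, between SMOX and AZIN1 or between SRM and AMD2. By the means of the EAE mice of day 14, ODC1, at 51.3 ± 18.8 RPKM (SD, n = 5), came next after OAZ1 at 90.6 ± 22.0 RPKM. AMD1, at 14.2 ± 2.73 RPKM, stood below SMS, SAT1 and AZIN1, though its range overlapped with that of AZIN1 (15.3 ± 4.68 RPKM). The spread of ODC1 within a group was 36.7% of the mean in EAE mice of day 14 and 6.81% to 18.4% in the other groups.

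ODC1 was the member whose 6 group means spanned more than 1 on the log2 scale (1.97), and its pattern was compared with that of 8443 genes with a mean above 3 RPKM over the 30 mice. By the root mean square difference of the 6 centred group means, the nearest 3 were SRXN1 (0.08), which encodes the antioxidant enzyme sulfiredoxin, CGREF1 (0.09) and PANX1 (0.09), which encodes the channel protein pannexin 1. SRXN1 was at 38.2 RPKM in EAE mice of day 14 and at 10.4 and 9.35 RPKM in Ctrl and OVA mice of that day. PANX1 was at 15.0, 4.51 and 3.61 RPKM and CGREF1 at 12.5, 4.89 and 3.50 RPKM in the same groups. On day 40 the means of the 3 groups ran from 9.29 to 10.4 RPKM in SRXN1, from 4.33 to 4.78 RPKM in PANX1 and from 3.74 to 4.14 RPKM in CGREF1. These genes were picked for their likeness, so the values are a description.

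The genes around the pathway were read from lists of 47 genes, of which 27 passed the filter between EAE and Ctrl mice of day 14. There, 2 were called higher and 0 lower, and their median log2 fold change was 0.12, beside 0.11 over all genes tested, of which 14.6% were called higher and 11.8% lower. Between EAE and OVA mice 4 of 27 were called higher and 0 lower, with a median of 0.05, where 11% of all genes were called higher and 9.28% lower. The list of polyamine transport held the largest of these changes. ATP13A3, an ATPase known to carry polyamines into the cell, was at 44.6, 52.1, 16.7, 22.8 and 30.6 RPKM in EAE mice of day 14. It was at 1.55, 3.65, 3.65, 4.11 and 3.97 RPKM in Ctrl mice and between 3.72 and 5.17 RPKM in OVA mice, far below every EAE mouse. ATP13A3 rose 9.29-fold against Ctrl (log2 fold change 3.22, SE 0.29, adjusted p = 1.4e-06) and 6.71-fold against OVA mice (log2 fold change 2.75, SE 0.29, adjusted p = 7e-06). The other 3 transport genes tested were not called. On day 40 ATP13A3 was at 4.04 ± 0.780 RPKM in EAE and 5.48 ± 1.54 RPKM in Ctrl mice (log2 fold change -0.41, SE 0.17, adjusted p = 0.13).

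MYC, a transcription factor known to activate ODC1, was the 1 gene of 7 tested in the MYC network that was called on day 14. It was at 10.5, 12.5, 7.10, 4.96 and 10.6 RPKM in EAE mice, at 1.92, 3.96, 4.05, 4.49 and 5.21 RPKM in Ctrl mice and at 3.03 to 4.77 RPKM in OVA mice. All EAE mice were above the OVA mice, and 1 overlapped with the Ctrl mice. MYC rose by 1.19 on the log2 scale against Ctrl (SE 0.27, adjusted p = 0.0019) and by 1.18 against OVA (SE 0.27, adjusted p = 0.0026).

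EIF5A, the translation factor that carries hypusine, a residue made from spermidine, was at 265 ± 51.4 RPKM (SD, n = 5) in EAE mice of day 14, at 186 ± 30.3 RPKM in Ctrl and at 175 ± 34.9 RPKM in OVA mice. It was called against OVA (log2 fold change 0.60, SE 0.16, adjusted p = 0.0085) and not against Ctrl mice (0.51, adjusted p = 0.017). The call against OVA was lost without EAE replicate 1 (0.50), EAE replicate 5 (0.58), OVA replicate 2 (0.51) or OVA replicate 3 (0.55), in the exact permutation test (adjusted p = 0.063) and with median-of-ratios scaling (0.56). DHPS, which starts the making of hypusine, had a log2 fold change of 0.42 against Ctrl (SE 0.14, adjusted p = 0.02), below the 1.5-fold threshold. Of the antizyme list, OAZ2 was at 91.4 ± 6.72 RPKM in EAE and 121 ± 9.12 RPKM in Ctrl mice, a log2 fold change of -0.40 (SE 0.09, adjusted p = 0.0021) that also stayed below it. Of the genes that supply S-adenosylmethionine or salvage methionine, MRI1 was called against OVA (log2 fold change 0.59, SE 0.20, adjusted p = 0.027), and not without EAE replicate 1 (0.42) or OVA replicates 2, 3 or 4 (0.51, 0.49 and 0.55). This call was also lost in the exact permutation test (adjusted p = 0.16), with only the mice of both groups in the model (adjusted p = 0.053), with a pseudocount of 1 (0.53), with median-of-ratios scaling (0.55) and with quantile normalization (0.49). MAT2A, which makes S-adenosylmethionine, had a log2 fold change of 0.18 against Ctrl (SE 0.14, adjusted p = 0.30).

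The genes that supply ornithine and arginine had 0 calls among 3 tested on day 14 against either control group. ARG1, which makes ornithine from arginine, was at 0.145 ± 0.0501 RPKM (SD, n = 5) in EAE and 0.300 ± 0.187 RPKM in Ctrl mice of day 14, under the filter. OAT, which links ornithine to proline and glutamate, was at 91.1 ± 17.3 RPKM in EAE and 94.3 ± 14.1 RPKM in Ctrl mice. On day 40 the arginine carrier SLC7A2 was the 1 gene of the 26 pathway genes tested that was called between EAE and Ctrl mice, at 4.50 ± 0.586 and 7.44 ± 1.46 RPKM (log2 fold change -0.70, SE 0.13, adjusted p = 0.02), where 0.46% of all genes were called. It was not called without EAE replicate 3 of day 40 (-0.64, adjusted p = 0.058), nor with the replicate numbers as a block. The call was also lost in a model of all 30 mice (adjusted p = 0.26), with only the mice of both groups (adjusted p = 0.062) and in the exact permutation test (adjusted p = 0.15).

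**Figure D5:**
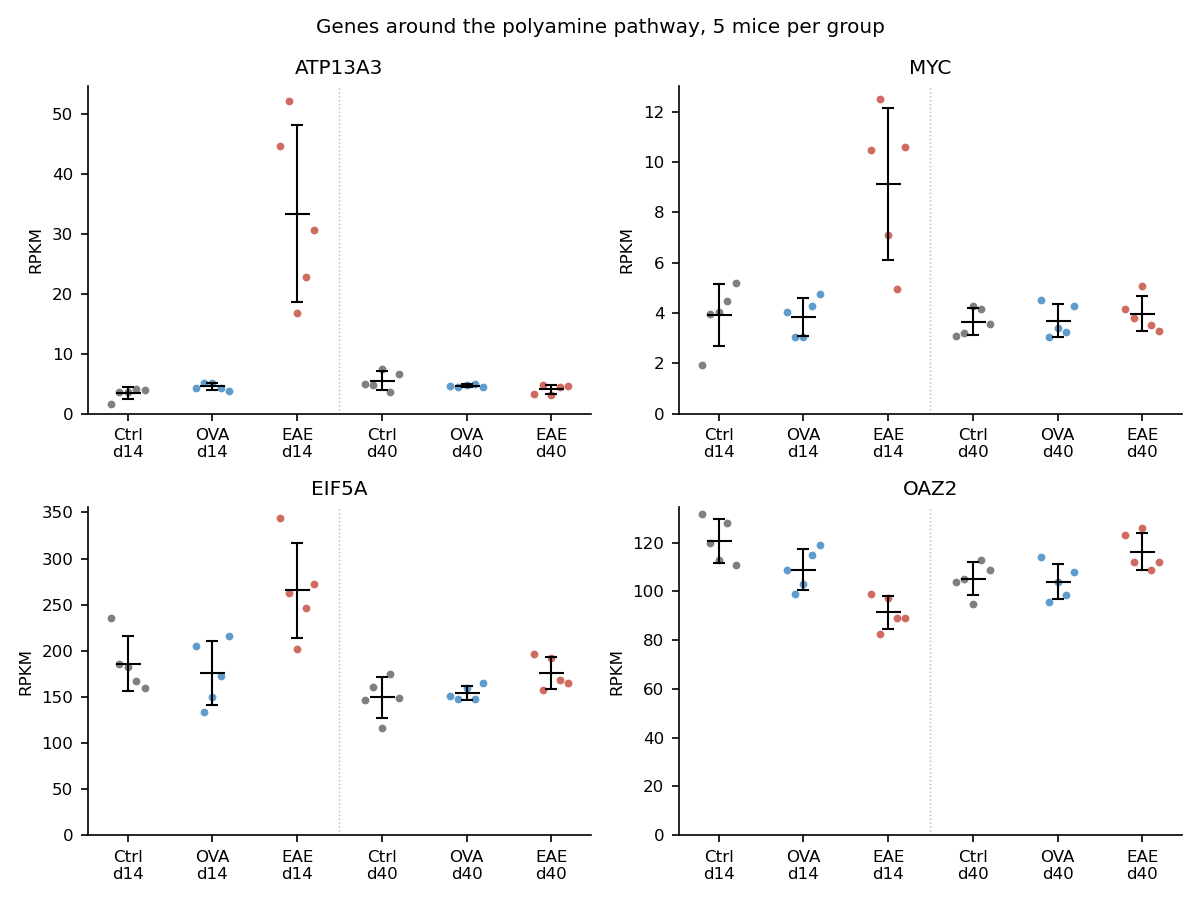
Level of ATP13A3, MYC, EIF5A and OAZ2 in every mouse (vertical axes in RPKM, from 0) by group and day, with 5 points per group and black bars for the mean ± SD. ATP13A3 was between 16.7 and 52.1 RPKM in the EAE mice of day 14 and at most at 7.49 RPKM in all other mice.

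Between the days, the effect of EAE against Ctrl mice changed for 5 of the 27 pathway genes tested, 1 upward and 4 downward, where 11.7% of all genes changed upward and 20.9% downward. That of ATP13A3 dropped by 3.62 on the log2 scale (SE 0.35, adjusted p = 2.7e-08), that of MYC by 1.08 (SE 0.31, adjusted p = 0.006), that of SLC7A2 by 1.06 (SE 0.29, adjusted p = 0.0042) and that of MGA by 0.90 (SE 0.31, adjusted p = 0.019), while that of the salvage enzyme APIP rose by 0.63 (SE 0.17, adjusted p = 0.0034). SLC7A2 and MGA were not called against Ctrl mice on day 14 (log2 fold changes 0.36 and 0.42). On day 40 their log2 fold changes were -0.70 and -0.48. In Ctrl mice the mean of MGA was 2.60 RPKM on day 14 and 4.55 RPKM on day 40, and in EAE mice 3.51 and 3.16 RPKM. SLC7A2 was at 4.77 and 7.44 RPKM in Ctrl and at 6.00 and 4.50 RPKM in EAE mice. Against OVA mice 1 changed upward and 3 downward, where 8.16% and 13.7% of all genes did, with changes of -2.95 for ATP13A3 (SE 0.35, adjusted p = 5e-07), of -1.08 for MYC (SE 0.31, adjusted p = 0.009) and of -0.60 for ASL (SE 0.15, adjusted p = 0.0023), and of 0.68 for APIP (SE 0.17, adjusted p = 0.0027). For APIP the change against Ctrl mice was not called without EAE replicate 2 of day 14 (0.58) or Ctrl replicate 3 of day 40 (0.57), and that against OVA mice without OVA replicate 1 of day 14 (0.57). For ASL it was lost without any 1 of 7 of the 20 mice, with values of -0.57 to -0.55, and also with a pseudocount of 1 (-0.53), median-of-ratios scaling (-0.48) and quantile normalization (-0.40).

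Markers of other cells were read in the same groups. In whole muscle, fewer cells of a type and less RNA per cell cannot be told apart. Between EAE and Ctrl mice of day 14, 5 of the 5 neutrophil markers tested (of 12 listed) were called higher. The 12 summed to at most 11.3 RPKM in Ctrl mice, too low for all 5 to pass the filter there. Their count thus partly follows from the filter. Called lower were 7 of 12 macrophage, 6 of 8 fibroblast and 4 of 4 erythrocyte markers (of 7 listed). So were 3 of 10 endothelial, 2 of 6 adipocyte (of 8 listed) and 2 of 10 fast muscle markers. Of all genes, 14.6% were called higher and 11.8% lower. Between EAE and OVA mice, 1 of 5 neutrophil markers was called higher and 0 lower, with a median log2 fold change of -0.86 over the 5. Called lower were 9 of 12 macrophage, 5 of 8 fibroblast, 5 of 5 erythrocyte, 3 of 10 endothelial, 3 of 6 adipocyte and 2 of 10 fast muscle markers. Of all genes, 11% were called higher and 9.28% lower. At least 1 of the 5 erythrocyte markers passed the filter only through the OVA mice, so this count partly follows from the filter. The summed level of the neutrophil markers was 219 to 405 RPKM in EAE, 69.9 to 239 RPKM in OVA and 4.23 to 11.3 RPKM in Ctrl mice, and the granule protease ELANE was below 0.1 RPKM in every mouse of day 14. Between OVA and Ctrl mice, 5 of 5 neutrophil markers were called higher, where 0.142% of all genes were called. This count also partly follows from the filter, since the Ctrl sums were too low for all 5 to pass there. The summed macrophage markers were at 160 to 361 RPKM in EAE, 321 to 501 RPKM in OVA and 345 to 510 RPKM in Ctrl mice. The fibroblast markers summed to 352 to 562, 810 to 1176 and 949 to 2087 RPKM, and the erythrocyte markers to 27.4 to 189, 477 to 1591 and 190 to 685 RPKM, in the same order. The endothelial markers summed to 105 to 149, 122 to 196 and 132 to 175 RPKM and the adipocyte markers to 376 to 568, 697 to 993 and 635 to 911 RPKM. The fast muscle markers summed to 68971 to 83741, 85958 to 114256 and 95028 to 126261 RPKM, with all EAE mice below all control mice. None of the 10 lymphocyte markers exceeded 3 RPKM in a group, with sums of 1.90 to 3.48 RPKM in EAE, 2.72 to 4.70 RPKM in OVA and 2.63 to 6.90 RPKM in Ctrl mice. Their part in the levels of the polyamine genes was not tested.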

How the data were processed

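EDL muscle RNA of 30 mice was sequenced as poly(A) libraries. The submitters' processing notes name Subread, featureCounts and mm10. The deposited values are log2(RPKM + 1) per gene, with 0.0001 for a gene without a read (25.8% of values). The scale was read from the values: of 2510 values of 3 or more reads, 90.1% were whole multiples of 1 read (within 0.1) on this scale, 63.8% as natural logarithms and 41.9% as RPKM. Values were converted back to RPKM.

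Groups were compared with limma 3.58.1 (R 4.3.3) on log2(RPKM + 0.1) with a mean-variance trend, the 15 mice of a day in 1 model and all 30 for the interaction. The genes tested exceeded a mean of 3 RPKM in 1 or more of the groups compared, and p-values were adjusted over all of them. Fold changes are on the log2(RPKM + 0.1) scale. The authors used EdgeR on counts, which were not used here. The 1.5-fold and 0.05 thresholds are theirs. The test was checked on simulated data.

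Coordinates are GRCm38 (mm10). Named are the 9 members, at most 4 called genes per pathway list and comparison, and the 3 genes nearest in pattern to any member spanning more than 1. DHPS, OAZ2, MAT2A, ARG1, OAT, Oaz1-ps and the neutrophil marker ELANE were named after their values were seen. Members and lists were chosen with earlier results of these data known. Each mouse is a separate animal, and no 2 libraries were alike (highest correlation 0.9929). No sequencing batch was given. Alternatives are in the closing section.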

Additional observations from a re-analysis of the deposited data

Results flagged for a closer look

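The effect of EAE differed between day 14 and day 40 for 3 of the 9 genes against each control group, by the interaction test in limma over 30 mice. Of all genes tested, 11.7% were called with a higher and 20.9% with a lower effect on day 40 against Ctrl mice, and 8.16% and 13.7% against OVA mice, so that the members' counts are near this background. Between the days the log2 fold change against Ctrl mice changed by -1.57 for ODC1, by 0.78 for AMD1 and by -0.66 for AZIN1. Against OVA mice it changed by -1.82 for ODC1, by 0.63 for AMD1 and by -0.62 for SMS. Both sets share the EAE mice. Each of the 54 groups of 5 values (9 genes in 6 groups) was also checked for a mouse standing apart by Dixon's ratio, for which chance gives about 1 in 20, and 0 passed the critical value of 0.71.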

How the results depend on the processing

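Of the 1965 log2 fold changes of members and called pathway genes recomputed under an alternative, 1895 kept their side of the thresholds, 66 lost the call and 4 gained it. No called value changed sign, while 45 recomputed values did among those not called, from 19 log2 fold changes of at most 0.19 in size. The 4 gained were SMOX without the fold-change threshold (-0.30 and -0.36 on day 14, 0.41 and 0.39 between the days). The number of members called between EAE and OVA mice of day 14 (4) came to 2 with a pseudocount of 1, to 2 with median-of-ratios scaling and to 2 with quantile normalization, where SRM (0.53, 0.55 and 0.47) and SMS (0.58, 0.55 and 0.49) came below the fold threshold. It ranged from 2 to 4 when each mouse was left out in turn. Against Ctrl mice it ranged from 2 to 3, and so did both counts of changes between the days. AZIN1 and SMS lost their change between the days under median-of-ratios scaling (-0.53 and -0.50) and quantile normalization (-0.48 and -0.50). ODC1 was called under every alternative in each of its 4 comparisons, and AMD1 in all but those named in its change against OVA mice. For AZIN1 the adjusted p of the change also missed the threshold, and the cause was not tested.

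With the replicate block the counts of members called were 3 and 4 on day 14 (against Ctrl and OVA) and 3 and 3 between the days, as without it. The pathway gene SLC7A2 lost its call on day 40 with the block (adjusted p = 0.071). The replicate numbers showed no consistent pairing of the mice. Of 75 same-numbered pairs, within and between the days, 26 correlated above 0.1 (median 0.015, from -0.728 to 0.721). In 7 of 60 cases a mouse correlated best with its own number in another group of its day. Likeness of single same-numbered mice is not excluded by this.

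With 5 mice a group, an exact permutation p cannot go below 0.00794. Reads shared by AMD1 and AMD2, or by OAZ1 and Oaz1-ps, could not be separated, and protein levels were not analysed here.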
